A study of Mus musculus with 14 samples.

Results

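Comp, Thbs1, Thbs2, Thbs3 and Thbs4, the 5 thrombospondin genes, and Postn, Tnc, Sparc and Cthrc1, 4 further genes of matricellular proteins, were followed in 14 mouse hearts by bulk RNA-seq. These 9 genes were listed by name, out of 42396 gene rows in each of 2 deposited tables of estimated counts, and 1 of them, Cthrc1, has a second row that carries a copy of the gene. Comp was chosen by its measured decrease in 1 of the experiments, the AAV experiment described next, so all values of that experiment are given as a description, and tests of these genes were made in the other.

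The mice were female and FS6KD, that is, a gene trap lowers their Ndufs6, a complex I subunit of mitochondria. Whole hearts at 12 weeks made up the knockout experiment, 4 of them Atf3+/+FS6KD and 4 Atf3-/-FS6KD. The deletion in Atf3, a stress-induced transcription factor, had been made by CRISPR-Cas9 in Ndufs6 gt/gt eggs and founders had been intercrossed on a mixed C57BL/6J and 129/Ola background, so both genotypes share the Ndufs6 allele and the Atf3 deletion is in the germline. In the AAV experiment, neonatal mice had received MyoAAV2, an adeno-associated virus directed at muscle, with a short hairpin RNA against Atf3 (3 hearts labelled MyoAAV2-shAtf3) or a control (3 hearts labelled MyoAAV2-shCtrl); the promoter of the hairpin is not given in the sources used here. No age is given for the single AAV hearts, and the series text can be read as harvest at 12 weeks after injection. Their own labels give the genotype only as control or Atf3 knockdown, and the series text names FS6KD. In the AAV table, the columns named for Atf3 belong to the samples labelled shCtrl and those named for the control to the samples labelled shAtf3. The hearts are therefore called labelled shAtf3 and labelled shCtrl, and each direction in that experiment depends on the labels.

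Matricellular proteins are secreted into the extracellular matrix but serve as modulators of cell and matrix behaviour rather than as its load-bearing scaffold. Thrombospondins fall into trimers (Thbs1 and Thbs2, which bind the receptors CD36 and CD47, and of which Thbs1 activates latent TGF-beta) and pentamers (Thbs3, Thbs4 and Comp, also called Thbs5, a protein of cartilage and tendon that binds collagen). In the injured or overloaded heart, periostin (Postn) and tenascin-C (Tnc) are well-known products of activated fibroblasts, Sparc binds collagen and calcium, Cthrc1 marks a matrix-producing fibroblast state, and Thbs4 is induced in muscle and acts in the endoplasmic reticulum with Atf6.

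Promoter sequence was available in RefSeq (GRCm38.p6) for 6 of the 9 genes, as 8 promoters, but not for Comp, Thbs1 or Cthrc1, which were not searched. The 250 bases before each start site were searched on both strands. The motifs were the ATF/CREB site TGACGTCA, at which Atf3 can bind (held by 1.55% of 32851 promoters of the same length), the AP-1 site TGANTCA (6.75%), the composite CEBP-ATF site TGATGCAA (0.791%), the TEAD site GGAATG (12.6%) and TATAAA, the letters of a TATA box (12.4%). None of the 8 promoters held these letters of the ATF/CREB, AP-1 or CEBP-ATF site. With sites this rare and so few promoters, that absence says little. TEAD or TATAAA letters were in 5 of them, of 4 genes, and 1 promoter is shown for each of these genes, with the match in capitals; they are written 5′ to 3′ on the strand of the gene.
Thbs4 (chr13:92794819-92795068, minus strand; TEAD letters on the opposite strand, in 2 matches that share a base): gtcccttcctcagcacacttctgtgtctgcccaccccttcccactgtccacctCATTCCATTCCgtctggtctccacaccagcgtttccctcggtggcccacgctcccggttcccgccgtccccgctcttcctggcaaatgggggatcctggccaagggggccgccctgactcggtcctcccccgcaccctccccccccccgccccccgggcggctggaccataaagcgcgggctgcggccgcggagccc
Postn, second start (chr3:54360857-54361106, plus strand; TATAAA letters): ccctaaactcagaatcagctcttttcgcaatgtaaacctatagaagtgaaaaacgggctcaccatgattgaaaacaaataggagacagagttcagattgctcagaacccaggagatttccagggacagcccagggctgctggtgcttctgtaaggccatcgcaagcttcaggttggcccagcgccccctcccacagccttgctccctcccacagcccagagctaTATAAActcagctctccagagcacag
Tnc, first start (chr4:64047016-64047265, minus strand; TATAAA letters): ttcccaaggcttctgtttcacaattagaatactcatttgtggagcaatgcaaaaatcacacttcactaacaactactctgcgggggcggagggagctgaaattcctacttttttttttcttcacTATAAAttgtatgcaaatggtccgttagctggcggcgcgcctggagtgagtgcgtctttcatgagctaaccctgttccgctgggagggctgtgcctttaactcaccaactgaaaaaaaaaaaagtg
Thbs2 (chr17:14694263-14694512, minus strand; TATAAA letters on the opposite strand): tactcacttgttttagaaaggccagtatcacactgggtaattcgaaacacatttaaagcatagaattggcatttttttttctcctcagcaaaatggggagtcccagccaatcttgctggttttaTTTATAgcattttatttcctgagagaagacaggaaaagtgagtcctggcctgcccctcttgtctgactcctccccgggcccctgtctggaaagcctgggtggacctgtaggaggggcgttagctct
The TATAAA letters of Postn began 26 bases before the start (position -26), near where a TATA box lies, and those of Tnc and Thbs2 farther off, at -126. The window of the second start of Tnc, not shown, overlaps that of the first and holds the same site, at -205. The matches of Thbs4 began at -197 and -192. No motif was shared by all of the genes with a promoter. A match is a description of the letters in this window.

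Libraries of the knockout experiment held 33914931 to 134920825 counts, with replicates 3 and 4 of both genotypes deeper than replicates 1 and 2, and those of the AAV experiment 30085432 to 40534913. Atf3 itself, counted from the exons that remain as well as those deleted, was at 11.5 ± 9.53 CPM (its share of the library's counts on a common scale, TMM-normalised; SD, n = 4) in Atf3+/+FS6KD and 25.1 ± 9.64 CPM (n = 4) in Atf3-/-FS6KD. In the AAV experiment it was at 12.5 ± 2.13 CPM (n = 3) in hearts labelled shCtrl and 16.6 ± 4.52 CPM (n = 3) in hearts labelled shAtf3, so the targeted gene was not lower in Atf3-/-FS6KD or, as labelled, in the hearts labelled shAtf3. By the column names of the AAV table that direction would be turned. Ndufs6 was at 3.21 ± 0.429 and 2.97 ± 0.542 CPM in the knockout experiment. Cardiomyocyte markers were the most abundant of the cell type lists in every group (summed 57310 to 82430 CPM in the knockout experiment), as the heart label states, and the adipocyte markers summed to at most 0.665 CPM. The 2 tables were scaled separately, so levels set side by side across experiments were not tested against each other.

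All 9 genes had a higher mean in Atf3-/-FS6KD than in Atf3+/+FS6KD, and none passed the test. The tests were edgeR quasi-likelihood fits over 15592 genes (those above 1 CPM in at least 1 library) with Benjamini-Hochberg adjustment, a gene being called at an adjusted p below 0.05. No gene at all was called in this comparison (0%, with 0.0743 as the lowest adjusted p), against 1575 genes at an unadjusted p below 0.05. The log2 fold changes of the 9 genes lay between 0.25 and 1.48 with a median of 0.45, where the median of all genes was 0 and 50.2% of all genes lay above 0. Of the 9, 6 were at an unadjusted p below 0.05 and higher, a state that 5.41% of all genes reached, and 2 did not overlap between genotypes, with 3.08% of all genes being higher without overlap. All 9 passed the filter on low values, but Cthrc1, one of the 6 and of the 2, did so only through Atf3-/-FS6KD, where it was high, and supports neither count. DESeq2, run on the same counts, called 2 of the 9 (Sparc and, with that limit, Cthrc1) among 208 genes.

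All 9 genes had a lower mean in the hearts labelled shAtf3 than in those labelled shCtrl. The log2 fold changes lay between -1.76 and -0.27 with a median of -1.14, where the median of all 15225 genes was 0 and 50.9% of all genes lay below 0. In 8 of the 9 the 2 groups did not overlap (9.94% of all genes were lower without overlap), the exception being Thbs1, and Cthrc1 passed the filter only through the hearts labelled shCtrl. Comp and Postn were among the 82 genes called in either direction (0.539%) and the 69 called lower (0.453%). These counts stand beside the background only, since this contrast was used to choose the genes. With labelled shCtrl replicate 2 left out, 1 of the 9 was called, of 4 genes called in all. With labelled shCtrl replicate 3 left out, 7 of the 9 were called, of 285 in all, and without any 1 of the hearts labelled shAtf3 it was 0 of the 9, of 1 to 5 in all. In bulk tissue, fewer cells that make a transcript and less of it per cell cannot be told apart.

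**Figure D1:**
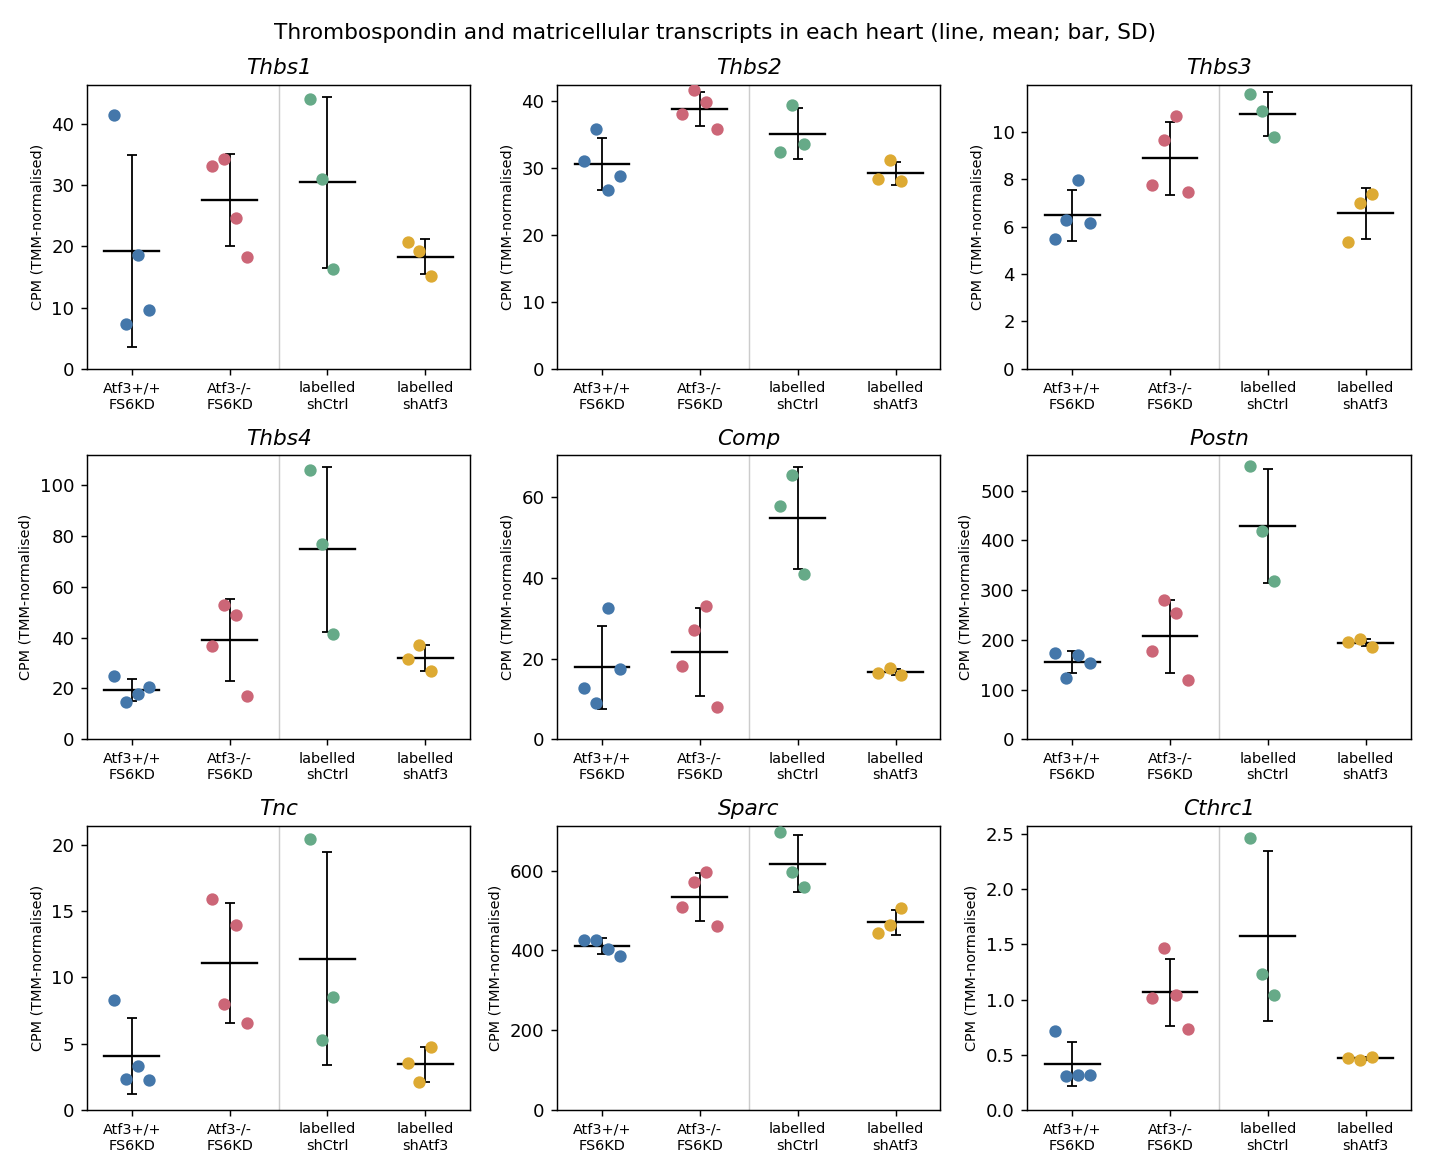
CPM of each of the 9 genes (vertical axes, linear, from 0) in each heart (points), with the mean (line) and SD (bar) of the 4 groups along the horizontal axis. Sparc and Cthrc1 do not overlap between Atf3+/+FS6KD and Atf3-/-FS6KD, and 8 of the 9 genes, all but Thbs1, do not overlap between the hearts labelled shCtrl and labelled shAtf3.

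**Figure D2:**
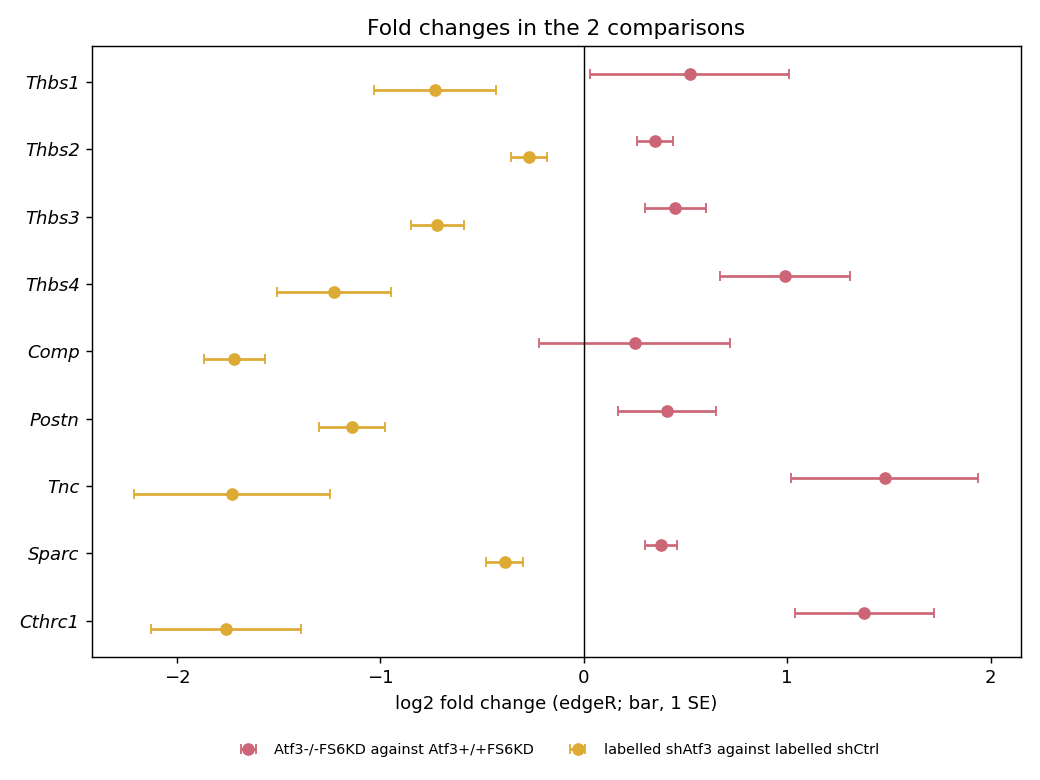
Log2 fold change (horizontal axis; bar, 1 SE) of each gene for Atf3-/-FS6KD against Atf3+/+FS6KD and for hearts labelled shAtf3 against labelled shCtrl. All 9 points lie above 0 in the first comparison, where 0 of 9 were called, and below 0 in the second, which is shown as a description.

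Comp (chromosome 8, 70373558 to 70382066, GRCm38, plus strand) had the smallest log2 fold change of the 9 between genotypes. In replicate order, the Atf3+/+FS6KD hearts had 12.8, 8.99, 32.4 and 17.4 CPM and the Atf3-/-FS6KD hearts 18.2, 27.1, 33.0 and 7.97 CPM. Both genotypes thus spanned about the same range, and the lowest heart of all was an Atf3-/-FS6KD heart. Between genotypes the log2 fold change was 0.25 (SE 0.47, 95% interval -0.81 to 1.31, edgeR adjusted p 0.884). It was 1.05 within replicates 1 and 2 and -0.28 within the deeper replicates 3 and 4, and it was -0.04 without Atf3-/-FS6KD replicate 3.

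Among the hearts of the AAV experiment, Comp separated into distinct levels. It was at 57.8, 65.5 and 41.0 CPM in the hearts labelled shCtrl and at 16.4, 17.6 and 16.0 CPM in those labelled shAtf3. The hearts labelled shAtf3 lay close together and far below all 3 labelled shCtrl. Comp differed by -1.72 (SE 0.15) on the log2 scale, from 54.8 ± 12.5 to 16.7 ± 0.798 CPM (SD, n = 3 each). As labelled, Comp ranked 9 from the bottom of 15225 genes by fold change, and among the called genes 2 from the bottom, after Ecrg4 (-1.73; named after its values were seen). With the labels turned, these ranks would count from the top.

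Postn (chromosome 3, 54361109 to 54391037, plus strand), the other of the 9 that was called in the AAV experiment, was at 549, 418 and 319 CPM in the hearts labelled shCtrl and at 196.0, 202 and 186 CPM in those labelled shAtf3. There was no overlap, and the log2 fold change was -1.14 (SE 0.16). By this measure, as labelled, it ranked 13 from the bottom among the called genes, and with the labels turned this rank would count from the top. The knockout experiment gave 174, 123.5, 170.0 and 154 CPM for Postn in Atf3+/+FS6KD and 178, 280.2, 253 and 118 CPM in Atf3-/-FS6KD. Here 3 of the 4 Atf3-/-FS6KD hearts lay above all Atf3+/+FS6KD hearts and replicate 4 lay below all of them (log2 fold change 0.41, SE 0.24, edgeR adjusted p 0.596). This difference was 0.62 within replicates 1 and 2, 0.20 within replicates 3 and 4, 0.24 without Atf3-/-FS6KD replicate 2 and 0.61 without Atf3-/-FS6KD replicate 4.

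Thbs4 (chromosome 13, 92751590 to 92794818, minus strand) also had 3 of the 4 Atf3-/-FS6KD hearts above all Atf3+/+FS6KD hearts. Its levels were 24.9, 14.8, 17.7 and 20.6 CPM in Atf3+/+FS6KD and 36.8, 52.9, 49.0 and 17.1 CPM in Atf3-/-FS6KD. Replicate 4 of Atf3-/-FS6KD lay inside the range of Atf3+/+FS6KD, and its Nppa was also the lowest of the 8 hearts. For Thbs4 the log2 fold change was 0.99 (SE 0.32, 95% interval 0.28 to 1.70, edgeR adjusted p 0.392), and it was 1.18 within replicates 1 and 2 and 0.78 within replicates 3 and 4. The hearts labelled shCtrl had 106, 77.0 and 41.3 CPM of Thbs4, against 31.7, 37.1 and 27.02 CPM in hearts labelled shAtf3 (log2 fold change -1.23, SE 0.28). Labelled shCtrl replicate 3 lay close to the highest heart labelled shAtf3, and without labelled shCtrl replicate 1 the log2 fold change was -0.89.

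Thbs1 (chromosome 2, 118111876 to 118127133, plus strand), the best-known activator of latent TGF-beta in the family, had 1 high heart among the controls. The levels were 41.5, 7.23, 18.6 and 9.59 CPM in Atf3+/+FS6KD and 33.0, 34.2, 24.7 and 18.3 CPM in Atf3-/-FS6KD. The highest of the 8 hearts was Atf3+/+FS6KD replicate 1, and the other 3 Atf3+/+FS6KD hearts lay near or under the lowest Atf3-/-FS6KD heart. Over all 8 hearts the log2 fold change was 0.52 (SE 0.49, 95% interval -0.58 to 1.61, edgeR adjusted p 0.741), 1.20 without that heart (adjusted p 0.371), 0.26 without Atf3+/+FS6KD replicate 2 and 0.29 without Atf3+/+FS6KD replicate 4. Thbs1 in hearts labelled shCtrl was at 44.0, 31.0 and 16.3 CPM, and in those labelled shAtf3 at 20.7, 19.2 and 15.1 CPM. The groups overlapped, since labelled shCtrl replicate 3 fell between the hearts labelled shAtf3 (log2 fold change -0.73, SE 0.30; -0.37 without labelled shCtrl replicate 1).

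Thbs2 (chromosome 17, 14665500 to 14694235, minus strand), which is expressed by fibroblasts and shapes collagen fibrils, had the smallest SE of the thrombospondins. It was at 31.0, 35.8, 26.7 and 28.8 CPM in Atf3+/+FS6KD and at 38.1, 41.6, 39.8 and 35.7 CPM in Atf3-/-FS6KD. The highest control and the lowest Atf3-/-FS6KD heart were level. On average the log2 fold change was 0.35 (SE 0.09, 95% interval 0.14 to 0.56, edgeR adjusted p 0.331). In hearts labelled shCtrl it was at 32.3, 39.4 and 33.6 CPM and in those labelled shAtf3 at 28.3, 31.2 and 27.97 CPM, a log2 fold change of -0.27 (SE 0.09) that is the smallest of the 9 in size.

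Thbs3 (chromosome 3, 89215180 to 89226837, plus strand), a pentameric member, was at 5.5, 6.28, 7.98 and 6.15 CPM in Atf3+/+FS6KD and at 7.75, 9.66, 10.7 and 7.45 CPM in Atf3-/-FS6KD. The ranges met only through Atf3+/+FS6KD replicate 3 (log2 fold change 0.45, SE 0.15, edgeR adjusted p 0.399). As labelled, its AAV levels were 11.6, 10.9 and 9.77 CPM in hearts labelled shCtrl and 5.33, 6.99 and 7.37 CPM in hearts labelled shAtf3, with no overlap and a log2 fold change of -0.72 (SE 0.13).

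Tnc (chromosome 4, 63959785 to 64047015, minus strand), a large glycoprotein that appears in the injured adult heart, had the largest log2 fold change of the 9 between genotypes. It was at 8.27, 2.34, 3.33 and 2.22 CPM in Atf3+/+FS6KD and at 16.0, 7.96, 13.9 and 6.56 CPM in Atf3-/-FS6KD. All but Atf3+/+FS6KD replicate 1 lay below every Atf3-/-FS6KD heart. Tnc had a log2 fold change of 1.48 (SE 0.46, 95% interval 0.45 to 2.50, edgeR adjusted p 0.389), and 2.06 without that heart (adjusted p 0.127). Levels of 20.5, 5.25 and 8.54 CPM in hearts labelled shCtrl stood against 3.497, 2.12 and 4.76 CPM in those labelled shAtf3. This gave a log2 fold change of -1.73 (SE 0.48), and of -1 without labelled shCtrl replicate 1, which was well above the other 2 of its group.

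Sparc (chromosome 11, 55394500 to 55423183, minus strand) was the most abundant of the 9. Atf3+/+FS6KD hearts had 425, 427, 404 and 385 CPM, and Atf3-/-FS6KD hearts 508, 571, 596 and 462 CPM. Every Atf3-/-FS6KD heart lay above every Atf3+/+FS6KD heart, from 410.2 ± 19.9 to 534 ± 60.6 CPM (SD, n = 4 each). Sparc had a log2 fold change of 0.38 (SE 0.08, 95% interval 0.19 to 0.57), an edgeR adjusted p of 0.277, the lowest of the 9, and a DESeq2 adjusted p of 0.00837. It was 0.34 within replicates 1 and 2 and 0.42 within replicates 3 and 4. Hearts labelled shCtrl had 696, 596 and 559 CPM and those labelled shAtf3 445, 463 and 506 CPM, without overlap (log2 fold change -0.39, SE 0.09).

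Cthrc1 (chromosome 15, 39076932 to 39087121, plus strand) was the scarcest, with at most 122 estimated counts per heart in the knockout experiment. It was at 0.717, 0.308, 0.317 and 0.317 CPM in Atf3+/+FS6KD and at 1.02, 1.47, 1.04 and 0.736 CPM in Atf3-/-FS6KD. The groups did not overlap, though Atf3+/+FS6KD replicate 1 came close to the lowest Atf3-/-FS6KD heart. It passed the filter on low values only through its higher group in each experiment (before TMM scaling, at most 0.707 CPM in Atf3+/+FS6KD against 1.51 in Atf3-/-FS6KD, and 2.52 in hearts labelled shCtrl against 0.465 in those labelled shAtf3), so that it had to differ to be tested. For Cthrc1 the log2 fold change was 1.38 (SE 0.34, 95% interval 0.61 to 2.16, edgeR adjusted p 0.313; DESeq2 adjusted p 0.0337), with 1.25 within replicates 1 and 2 and 1.48 within replicates 3 and 4. Its levels were 2.46, 1.23 and 1.05 CPM in hearts labelled shCtrl and 0.474, 0.449 and 0.476 CPM in those labelled shAtf3 (log2 fold change -1.76, SE 0.37; -1.28 without labelled shCtrl replicate 1). The row of the copy, Cthrc1_1, held the same count as Cthrc1 in 14 of 14 libraries, so its levels, fold changes and tests are those just given. The same gene is thereby counted on 2 rows, and each row may hold part of its reads. With both rows summed, the log2 fold changes of Cthrc1 were 1.37 and -1.81.

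Levels can be ordered between genes only per length of transcript. On CPM per kilobase of exon, Sparc came first and Postn second in all 4 groups, at 108 ± 5.25 and 17.9 ± 2.64 in Atf3+/+FS6KD (SD, n = 4). Thbs4 ranked 3 and Comp ranked 4 in 3 of the groups. In Atf3+/+FS6KD they could not be separated, at 5.93 ± 1.32 and 6.03 ± 3.46. Thbs2 and Thbs1 followed in every group, then Thbs3, Tnc and Cthrc1. In the hearts labelled shAtf3 the first 7 of this order did not overlap with their neighbours, while Tnc (0.445 ± 0.170) and Cthrc1 (0.293 ± 0.00954) did. In hearts labelled shCtrl, Comp (18.5 ± 4.23) and Thbs4 (22.7 ± 9.85) overlapped, as did Thbs2 (5.01 ± 0.537) and Thbs1 (5.01 ± 2.29), Thbs3 and Tnc, and Tnc and Cthrc1. In Atf3+/+FS6KD each neighbour from Comp down to Thbs3 overlapped with the next, as did Tnc and Cthrc1. In Atf3-/-FS6KD the same held from Postn down to Thbs1 and from Thbs3 down to Cthrc1, so the order there is one of means.

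**Figure D3:**
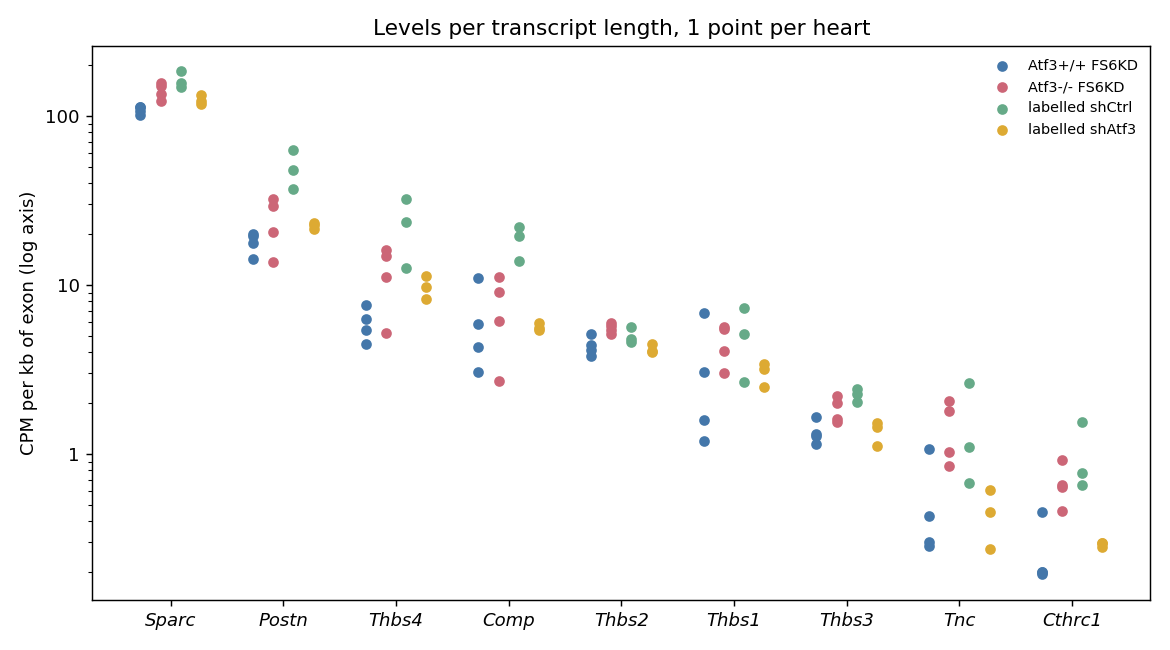
CPM per kilobase of exon (vertical axis, log scale) of the 9 genes in order of level, with 1 point per heart coloured by group; the 2 experiments were scaled separately. Sparc and Postn head the order in all groups, and the hearts labelled shCtrl (green) carry the highest levels of Comp and of Postn.

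The makeup of the thrombospondin family, as the share of each gene in the sum per length over the 5, put the means of the pentameric Thbs4 and Comp ahead of those of Thbs1 and Thbs2 in every group. Thbs4 held 28.9 ± 4.95% in Atf3+/+FS6KD, 37.0 ± 5.17% in Atf3-/-FS6KD, 41.3 ± 7.01% in hearts labelled shCtrl and 40.5 ± 2.50% in hearts labelled shAtf3 (SD, n = 4, 4, 3 and 3). Comp held 28.1 ± 12.0%, 22.2 ± 5.83%, 35.3 ± 4.99% and 23.6 ± 1.26% in the same order. Its share ran from 29.5% to 38.5% in hearts labelled shCtrl and from 22.5% to 25.0% in hearts labelled shAtf3, without overlap. The share of Thbs2 went the other way in that experiment, at 9.995 ± 3.21% and 17.5 ± 0.848%. Shares sum to a whole, so the lower share of one gene raises the others.

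The hearts are described here by the median over the 9 genes. Centred on the mean of its experiment, the median log2 deviation of the 9 genes was 0.64 in Atf3-/-FS6KD replicate 2 and 0.54 in replicate 3, with 9 of 9 genes above the mean in both and also in replicate 1 (0.15). Atf3-/-FS6KD replicate 4 stood at -0.02 with 3 of 9 above the mean. The Atf3+/+FS6KD hearts stood at -0.07, -0.82, -0.21 and -0.29. Labelled shCtrl replicates 1 to 3 stood at 0.95, 0.45 and 0.16. Hearts labelled shAtf3 stood at -0.57, -0.34 and -0.58, with 0 of 9 genes above the mean in any of these 3. Such deviations keep the difference between groups, so the AAV values restate the contrast by which Comp was chosen.

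**Figure D4:**
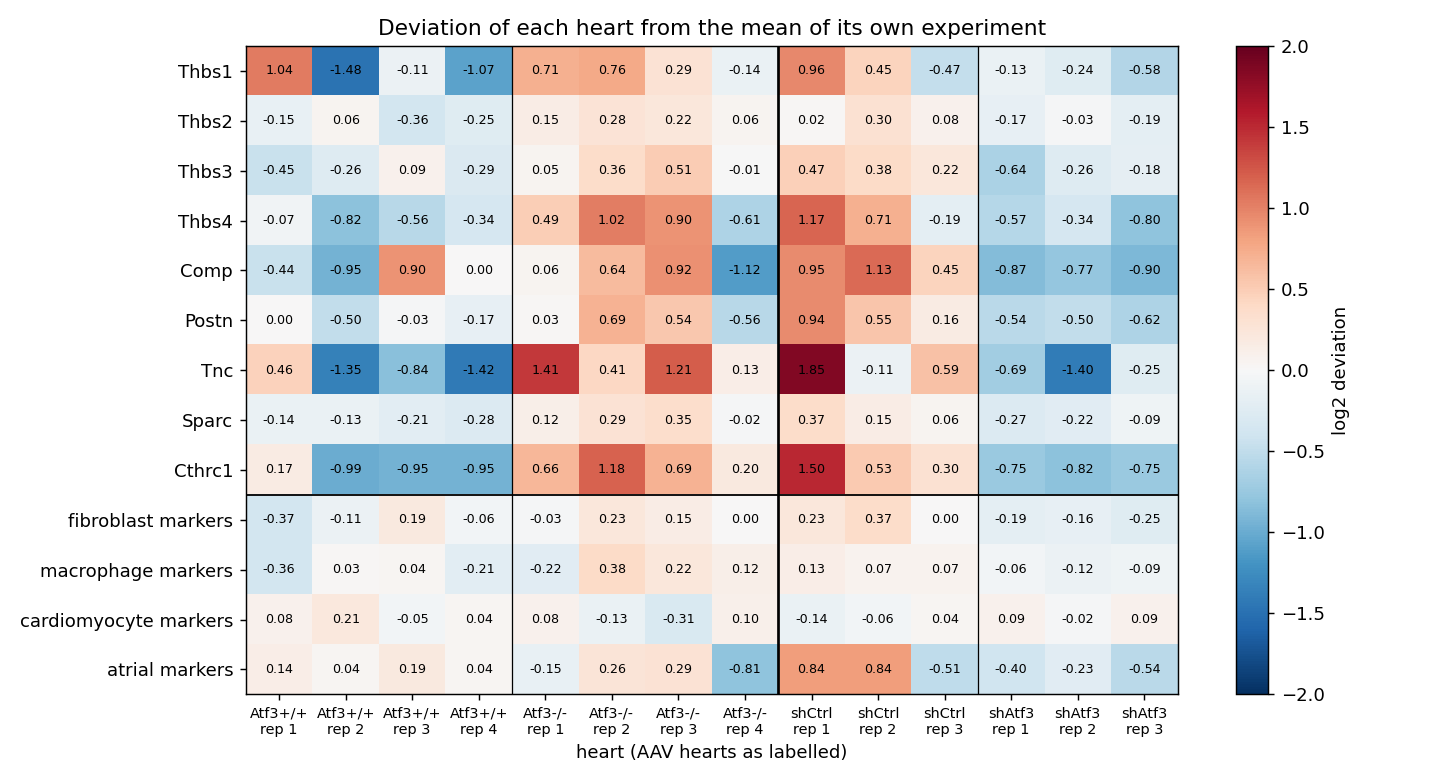
Log2 deviation of each gene (rows) in each heart (columns) from the mean of its own experiment, with the log2 deviation of the summed CPM of 4 marker lists in the bottom rows; red is above and blue below the mean. Atf3-/-FS6KD replicate 4 is the lowest of its genotype in all 9 genes and in the atrial markers (-0.81), which are mostly Nppa, and labelled shCtrl replicate 1 carries the highest Tnc and Cthrc1.

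Some marker lists lay on the same side as these genes in each experiment, and their part in the results was not tested. Of 9 fibroblast markers (Pdgfra, Tcf21, Dpt and others), 9 were higher in Atf3-/-FS6KD (median log2 fold change 0.29, 0 called), and their summed level overlapped between genotypes (2285 to 3365 CPM against 2883 to 3466 CPM). In the AAV experiment, 9 of 9 were lower in hearts labelled shAtf3 with a median of -0.47. Of these 1, Dpt, was called (named after its values were seen), beside 0.453% of all genes called lower. The sums did not overlap (2986 to 3854 CPM against 2502 to 2679 CPM). Macrophage markers were higher in Atf3-/-FS6KD in 8 of 8 (median 0.31, 0 called; summed 192 to 254 CPM against 212 to 321 CPM) and lower in hearts labelled shAtf3 in 8 of 8 (median -0.21; 315 to 328 CPM against 276 to 287 CPM). Cardiomyocyte markers went the opposite way, with 8 of 9 lower in Atf3-/-FS6KD (median -0.15) and 9 of 9 higher in hearts labelled shAtf3 (median 0.10), with 0 called and overlapping sums in both experiments. The exception was Actc1, the cardiac actin (0.47, SE 0.12, edgeR adjusted p 0.317; named after its values were seen). Endothelial markers had medians of 0.10 and 0.03, mural markers of 0.08 and -0.02 and erythrocyte markers of -0.20 and 0.04.

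Of 8 atrial markers, 1 gene carried nearly all of the summed level. Nppa, the atrial natriuretic peptide, which the stressed ventricle also expresses, made up 76.9% to 91.6% of the sum in the 14 hearts, and the defining atrial genes Myl7, Sln and Bmp10 lay at or below 0.386 CPM in each. Nppa was at 632, 564.6, 646 and 564.7 CPM in Atf3+/+FS6KD and at 503, 689.6, 696 and 283.5 CPM in Atf3-/-FS6KD. The lowest of these 8 hearts was replicate 4 of Atf3-/-FS6KD, which was also the lowest of its genotype in all 9 genes. In the AAV experiment Nppa was at 785, 776 and 262 CPM in hearts labelled shCtrl and at 284, 337 and 254 CPM in those labelled shAtf3 (log2 fold change -1.06, SE 0.34). Here labelled shCtrl replicate 3, the lowest of its group in 7 of the 9 genes (all but Thbs2 and Tnc), lay among the hearts labelled shAtf3. Centred on the groups, Pearson's r with Nppa over the 14 hearts ran from 0.91 for Thbs4 and 0.85 for Postn down to 0.34 for Thbs2 and 0.20 for Tnc. With the sum of the other atrial markers it lay between -0.78 for Thbs1 and 0.07 for Thbs3. Those other markers did not move together in the AAV experiment, where Dkk3 was called lower (-1.06) and Gpr22 was higher without overlap (0.39, SE 0.08, edgeR adjusted p 0.0799), both named after their values were seen. What Nppa has to do with these results was not tested.

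Across the 14 hearts, centred on the group means so that only the spread between hearts of 1 group counts, the genes ranged widely in how they followed the summed fibroblast markers. Pearson's r with that sum was 0.69 for Comp and 0.69 for Thbs3, 0.44 for Postn and 0.32 for Thbs4, but -0.03 for Thbs1, -0.15 for Cthrc1 and -0.42 for Tnc. With summed cardiomyocyte markers r was -0.84 for Comp, -0.82 for Postn, -0.75 for Thbs3, -0.71 for Thbs4 and -0.6 for Sparc. It was -0.35 for Thbs1 and Cthrc1, -0.18 for Tnc and 0.07 for Thbs2. With Atf3, r was 0.66 for Thbs1, 0.65 for Cthrc1 and 0.51 for Tnc, but 0.10 for Comp and -0.27 for Thbs3. These are descriptions over 14 hearts; values of 1 heart share library and depth. Atf3+/+FS6KD replicate 1 had the lowest fibroblast sum of its experiment (2285 CPM). Among the 4 Atf3+/+FS6KD hearts it had the highest Thbs1, Thbs4, Postn, Tnc, Cthrc1 and Atf3 (25.8 CPM of Atf3 against 6.36 to 6.91 CPM in the other 3), so genes from both sides of this range of r were high in it.

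Between the 9 genes themselves, r was positive in 36 of 36 pairs when centred on the experiment (median 0.74) and in 31 of 36 when centred on the group (median 0.43). Centring on the experiment keeps the difference between groups, and with it the AAV contrast by which Comp was chosen. The highest was that of Thbs4 with Postn, 0.93 and 0.94 by the 2 centrings. Thbs2 with Tnc was the lowest within groups at -0.33.

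By the same measure, centred on the experiment, the genes most like Comp were Gm51533 (0.98), Itgb5 (0.94), Loxl2 (0.93), Loxl3 (0.92) and Adamts2 (0.92). This r carries the AAV contrast by which Comp was chosen, so genes lower in that contrast come forward, and the list is a description. Gm51533 overlaps Comp on chromosome 8 (70367468 to 70374860) in up to 1313 bases, and reads of the 2 cannot be told apart without strand. Itgb5 encodes an integrin subunit, Loxl2 and Loxl3 encode enzymes that cross-link collagen, and Adamts2 encodes a protease that trims procollagen. Most like Postn were Dlg3 (0.97), Fstl1 (0.96), Gab2 (0.95), Csrp2 (0.95) and Loxl3 (0.93), and most like Thbs4 were Dlg3 (0.97), Frzb (0.94), Exosc2 (0.93), Tceal9 (0.93) and Dpysl3 (0.93). Thbs1 stood nearest to Spcs3 (0.92), Zdhhc21 (0.91), Dpysl3 (0.90), D7Ertd443e (0.89) and Slc35b3 (0.89), with none of the collagen-processing genes named beside Comp. Centring on the group instead kept Gm51533 (0.96) first for Comp, followed by Adcy7 (0.93), Ltbp2 (0.92), Loxl2 (0.92) and Slc1a2 (0.91). It kept Dlg3 (0.96) first for Thbs4, and put Tceal9 (0.96) first for Postn and Car2 (0.96) first for Thbs1.

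Of 18 other matricellular genes, 15 were tested, and in the knockout comparison 10 lay higher and 5 lower (median log2 fold change 0.12, 0 called). Spp1, the gene of osteopontin, was at 1.60, 0.770, 0.762 and 0.785 CPM in Atf3+/+FS6KD and at 4.64, 6.64, 3.92 and 4.24 CPM in Atf3-/-FS6KD. The groups were well apart (log2 fold change 2.33, SE 0.28), and the edgeR adjusted p over all genes was 0.121. Ccn2, a growth factor induced by TGF-beta, had a log2 fold change of 0.13 (adjusted p 0.894), Sparcl1, the closest relative of Sparc, 0.12 (adjusted p 0.689) and Tgfbi, a periostin relative, 0.28 (adjusted p 0.640). Hearts labelled shAtf3 had 14 of the 15 lower, with a median of -0.38. Among the genes called were 2, Ccn2 (-0.71) and Ccn5 (-0.68), beside 0.453% of all genes called lower. Spp1 had -1.23, Tgfbi -0.38 and Sparcl1 -0.07 on the same scale. Ccn5 falls outside the rule for naming genes and was chosen after its values were seen, as were Itgb5 and Sdc4 in the next paragraph.

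Of 16 receptors of these proteins, 10 lay higher in the knockout comparison (median log2 fold change 0.04, 0 called). Among them 2 were higher without overlap between genotypes, beside 3.08% of all genes. These were Itgb3 (0.71, SE 0.18, edgeR adjusted p 0.319) and the syndecan Sdc1 (0.32, SE 0.12, adjusted p 0.433), both named after their values were seen. CD47 and CD36, the receptors of the trimeric thrombospondins, had 0.02 (SE 0.06, 95% interval -0.11 to 0.16) for Cd47 and -0.03 (SE 0.07, -0.19 to 0.12) for Cd36. The integrin subunits Itgav and Itgb1 had 0.09 (SE 0.06) and 0.03 (SE 0.07). As labelled, 13 of 16 lay lower in the AAV experiment, with a median of -0.13. Without overlap 5 were lower, beside 9.94% of all genes, and 1, Cacna2d1 (0.13, SE 0.06; named after its values were seen), was higher, beside 8.48% of all genes. Cd47 had -0.02, Cd36 0.16, Itgav -0.16 and Itgb1 -0.07. The genes called were Itgb5 (-0.47) and Sdc4 (-0.57), a syndecan, beside 0.453% of all genes called lower.

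The 10 genes of thrombospondin secretion and the endoplasmic reticulum stress response had medians of 0.10 (9 higher, 0 called) in the knockout comparison and -0.03 (4 higher) in the AAV experiment, where 0 were called as well. Atf6, the stress sensor that Thbs4 binds, was at 187 ± 7.93 and 197 ± 7.77 CPM (SD, n = 4 each) in the genotypes, a log2 fold change of 0.08 (SE 0.05, edgeR adjusted p 0.657). Its log2 fold change was 0.03 (SE 0.07) in the AAV experiment. Hspa5, the chaperone BiP, had 0.14 (adjusted p 0.473) and 0.03, and Creld2, a secreted stress marker, 0.15 (adjusted p 0.523) and -0.10.

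Comp and Thbs4 are also known from tendon, cartilage and valve, and 9 of 19 further genes of those tissues passed the filter on low values in the knockout experiment. Of these 9, Tnmd and Col11a1 passed only through Atf3-/-FS6KD, where they were high, and of the 8 that passed in the AAV experiment Tnmd did so only through the hearts labelled shCtrl. The directions of these genes were thus set by the filter (both named after their values were seen). By their means, 12 of all 19 lay higher and 6 lower in Atf3-/-FS6KD, and 3 lay higher and 14 lower in the hearts labelled shAtf3, with genes near 0 CPM among them. None of the 9 tested was called in the knockout comparison. The cartilage genes Acan, Chad and Cilp2 did not pass that filter in either experiment and were not tested; the filter uses CPM before TMM scaling, on which Acan, at 1.02 CPM after it in labelled shAtf3 replicate 3, did not exceed 1. Cilp, an extracellular matrix gene, was at 26.9, 15.8, 43.4 and 21.3 CPM in Atf3+/+FS6KD and at 41.0, 45.8, 52.7 and 27.9 CPM in Atf3-/-FS6KD (log2 fold change 0.63, edgeR adjusted p 0.520). It was at 160.4, 132 and 75.0 CPM in hearts labelled shCtrl and at 45.5, 59.3 and 51.9 CPM in those labelled shAtf3 (-1.23). Fmod, a collagen-binding proteoglycan, had 0.71 (adjusted p 0.523) and -1.43, and was among the genes called in the AAV experiment. Sox9, the transcription factor of cartilage, had 0.36 (adjusted p 0.523) and -0.17.

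Myofibroblast markers went along in number but not in every gene. In the knockout comparison 8 of 10 lay higher (median log2 fold change 0.40, 0 called) although their sums overlapped (331 to 509 CPM in Atf3+/+FS6KD and 293 to 472.5 CPM in Atf3-/-FS6KD). In the AAV experiment 10 of 10 lay lower (median -0.61, summed 384 to 662 CPM against 300.2 to 337 CPM). Of these 2 were called, beside 0.453% of all genes called lower. Meox1, a transcription factor of activated fibroblasts, had 0.58 (edgeR adjusted p 0.476) and -0.79. Fap, the fibroblast activation protein, had -0.13 (adjusted p 0.813) and -0.36. Acta2, the smooth muscle actin that also marks mural cells, had -1.07 (adjusted p 0.510) and -0.10, so these 2 markers lay lower in Atf3-/-FS6KD, and neither passed the test.

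The counting limits some of these values. Comp had counts that were not whole in 11 of 14 libraries, Thbs3 and Cthrc1 in 9 and Tnc in 8, while Thbs2, Thbs4, Postn and Sparc had whole counts throughout. The genes annotated over Comp, Thbs3, Postn and Tnc are Gm51533, LOC115489723, Gm31095 and 8030451A03Rik, and their counts came to at most 5.77%, 7.39%, 0.0403% and 11.8% of that of the member in any library. How reads were divided between overlapping genes is not given in the sources used here.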

How the data were processed

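Whole-heart RNA was isolated with a kit for fibrous tissue and sequenced as stranded mRNA libraries. The submitters' processing notes name GRCm38.p6 and featureCounts 2.0.0; the aligner and the use of strand are not given in the sources used here. The deposited tables hold estimated counts per gene and library, made by the authors without normalization or pooling. In each library 19.3% to 24.4% of values had a fractional part, so they were rounded before each test, which had been planned for whole counts. Rows that repeat a gene name with an added number (2379 of 42396) were read as copies. All columns of samples were used (0 left out).

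The 9 genes, their lists and the tests were chosen with earlier results of these data known. Groups follow the GEO labels. Each experiment was fitted alone in edgeR 4.0.16 (R 4.3.3; TMM, quasi-likelihood, two-sided, Benjamini-Hochberg over all genes above 1 CPM in at least 1 library). Intervals are 95%. Log2 CPM used a prior count of 2, and lengths are union exons of GENCODE on GRCm38. Alternatives were DESeq2 1.42.0, limma-trend (limma 3.58.1), library size scaling, other filters, summed copies, depth batches, a replicate block, all 14 libraries in 1 fit and leaving out each heart. The fits were tested on simulated data. No 2 replicates agreed within sampling noise (chi-square per gene 7.31 to 99.3). The study calls the 4 hearts per genotype biological replicates; for the AAV hearts nothing but the numbering is given, so p-values there measure only the spread between these samples, which may be technical. Beyond the 9 genes, the text names Atf3 and Ndufs6, fixed members of each list (Spp1, Ccn2, Sparcl1 and Tgfbi; Cd47, Cd36, Itgav and Itgb1; Atf6, Hspa5 and Creld2; Chad, Cilp, Cilp2, Fmod, Acan and Sox9; Acta2, Fap and Meox1), list genes called in the knockout comparison (0) and the 5 genes most like Comp, Thbs1, Thbs4 and Postn. Markers of endocardium, lymphocytes (summed 1.26 to 5.31 CPM) and platelets (11.3 to 14.7 CPM) were listed as well, with endocardial medians of -0.05 and 0.02 on the log2 scale.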

Additional observations from a re-analysis of the deposited data

Results flagged for a closer look

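Cthrc1, and equally its copy row Cthrc1_1, had 1 heart far from the others of its group: Atf3+/+FS6KD replicate 1 was at 0.717 CPM, with a gap to the next heart of 0.978 of the range of the 4, above Dixon's 95% critical value for 4. Chance flags about 1 in 20 groups. That heart was also the highest of its group in Thbs1, Thbs4, Postn, Tnc and Atf3.

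Sparc, Cthrc1 and Cthrc1_1 lay higher in every Atf3-/-FS6KD heart than in every Atf3+/+FS6KD heart, and lower in every heart labelled shAtf3 than in every heart labelled shCtrl. The log2 fold changes of the 2 experiments differed by 0.77 for Sparc and by 3.14 for Cthrc1 and its copy row. The difference between the experiments was not tested, and its size and direction rest on the AAV labels, which the column names of the table do not match. With the labels turned it would be -0.01 for Sparc and -0.38 for Cthrc1. Cthrc1 and its copy row passed the filter on low values in each experiment only through the group where they were high, so the pattern is no support in their case.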

How the results depend on the processing

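Of 189 values of the 9 genes and the copy row under alternatives in the knockout comparison, 187 kept their direction. Comp turned to -0.04 without Atf3-/-FS6KD replicate 3 (range -0.04 to 0.70 with 1 heart left out) and to -0.28 within replicates 3 and 4; the cause was not tested. The number of the 9 called stayed at 0 under every alternative but DESeq2 (2). Genes called over all genes, 0, became 208 with DESeq2, 2 with no filter on low counts, 8 within replicates 3 and 4, 31 with all 14 libraries in 1 fit, and 0 to 15 with 1 heart left out. In the AAV experiment 139 of 139 values kept their direction. The 82 genes called became 308 with DESeq2, 304 with no filter, 1 with all 14 libraries in 1 fit and 1 to 285 with 1 heart left out, and the 2 of the 9 called became 5, 7, 0 and 0 to 7 in the same order. The cause of these moves was not tested. The deviations of same-numbered hearts had r of 0.14, 0.09, 0.01 and 0.13 in the knockout experiment and 0, 0.15 and 0.08 in the AAV experiment. Between hearts of different numbers r ran from -0.24 to 0.19 and from -0.18 to 0.09. A replicate block, which gave 0 genes and 20 genes called, changed no call of the 9. Depth limits Cthrc1 most, with at most 122 estimated counts per library.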
